A study of Mus musculus with 3 samples.

Results

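The S100 genes S100a6, S100a8, S100a9 and S100a10 were followed in kidney RNA of mice with early glomerulonephritis. These 4 genes were chosen by name from the S100 family, and earlier results of the same 3 arrays were known when they were chosen. Their levels are therefore given as a description, with no test. They are named by 9 of the 16281 rows of the deposited table, and they are 4 of the 7235 genes with a value on all 3 arrays.

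The mice were of the BALB/c strain. Each of 3 animals, mouse 11, mouse 12 and mouse 13, had been injected 1 day earlier with anti-GBM antibody, which binds the basement membrane of the glomerulus, and its kidney RNA carried the red dye Cy5 on an array of its own. The green dye Cy3 marked RNA pooled from the kidneys of 5 normal mice. The labels give no age, sex or antibody dose and name no group with a control antibody, so an effect of the injection itself cannot be told apart from that of the antibody. The pool is 1 control sample, every array had the same dye orientation, and whole kidney was used, in which fewer cells of a type and less RNA per cell cannot be told apart.

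S100 proteins are small calcium sensors. Each chain carries a pair of EF-hand loops that bind calcium, and most work as dimers that change shape on binding and then grip a partner protein. S100a8 and S100a9 form the heterodimer calprotectin, abundant in neutrophils and monocytes, which binds zinc and manganese and acts outside cells as a danger signal on Toll-like receptor 4 and the receptor Ager. S100a6, or calcyclin, is found in fibroblasts and epithelia and is linked to cell growth. S100a10, or p11, no longer responds to calcium and is bound to annexin A2, a complex that holds plasminogen at the cell surface.

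Values are log ratios of anti-GBM over control, centred on the median of each array. The base of the logarithm is not stated, so folds appear under both base 2 and base 10. The direction is not stated either and was read from the dyes as likely. If it runs the other way, every sign, rank and order below turns with it: the 3rd highest mean becomes the 3rd lowest, and a mouse that is lowest in a row becomes the highest. An exact 0 was read as no estimate. Of the 9 rows, 5 had a value on all 3 arrays, 3 had a value on 2 arrays and 1 had none.

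The genes S100a6, S100a8 and S100a9 lie close together in the S100 gene cluster on mouse chromosome 3, in which S100a8 and S100a9 are direct neighbours, and S100a10 lies farther along the same chromosome. The 250 bases before the annotated start are shown for S100a6, S100a8 and S100a9, the 3 of the 4 genes that had an entry (RefSeq, build GRCm38.p6). The bases run 5′ to 3′ toward the gene, and capitals mark motif matches.
S100a6, chr3:90612644-90612893, plus strand: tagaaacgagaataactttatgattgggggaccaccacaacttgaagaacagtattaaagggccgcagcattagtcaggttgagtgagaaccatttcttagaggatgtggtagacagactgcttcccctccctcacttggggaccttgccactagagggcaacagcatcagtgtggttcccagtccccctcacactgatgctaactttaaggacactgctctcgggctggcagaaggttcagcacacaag
S100a8, chr3:90668821-90669070, plus strand: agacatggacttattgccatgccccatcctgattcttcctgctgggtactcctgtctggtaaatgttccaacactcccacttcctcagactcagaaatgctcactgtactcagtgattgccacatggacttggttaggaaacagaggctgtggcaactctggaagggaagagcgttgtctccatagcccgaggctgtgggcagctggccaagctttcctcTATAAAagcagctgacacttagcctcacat
S100a9, chr3:90695722-90695971, minus strand: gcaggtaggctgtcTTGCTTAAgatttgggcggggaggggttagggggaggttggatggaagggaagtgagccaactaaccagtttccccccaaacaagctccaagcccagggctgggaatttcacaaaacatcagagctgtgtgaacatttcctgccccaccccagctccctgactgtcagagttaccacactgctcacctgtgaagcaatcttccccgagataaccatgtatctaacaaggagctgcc

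A search on both strands covered letters typical of AP-1 (TGANTCA), C/EBP (TTGCNNAA), STAT factors (TTCNNNGAA), NF-kB (GGNNTTTCC) and the TATA box (TATAAA). No stretch held more than 1 match, so none overlapped. The S100a8 stretch held 1 match, the TATA letters from base 30 to base 25 before the start, which 12.4% of 32851 RefSeq promoters of this length hold. The S100a9 stretch held 1 match to the C/EBP letters, from base 236 to base 229 before the start, found in 9.56% of promoters. In the S100a9 entry the TATA letters begin at base 1 after the annotated start, just outside the printed stretch. The S100a6 stretch held none of the 5 motifs, of which AP-1, STAT and NF-kB letters occur in 6.75%, 7.02% and 4.93% of promoters. These are matches of letters only, and nothing in the arrays measures binding there.

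S100a6 had the highest log ratio of the 4 genes. Its fully measured row was at 1.92 in mouse 11, 1.99 in mouse 12 and 1.72 in mouse 13. The 3 mice lay within 0.27 of each other, and the row ranked 4th, 6th and 6th from the top among the rows measured on the respective array. The mean was 1.88 ± 0.14 (SD, n = 3 mice), or 3.68-fold for base 2 and 75.6-fold for base 10, the 3rd highest mean of 7235 genes. The remaining S100a6 rows are annotated to 1 shared source sequence, and both are listed at 0 for mouse 12. One of them read 1.70 in mouse 11 and 1.62 in mouse 13. The other read 0.90 and 0.64, lower by 0.80 and 0.98, so rows of the same annotated sequence gave unequal ratios in the same RNA. All S100a6 values other than 0 were above 0.

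The higher of these S100a6 rows was listed at 0 for mouse 12 beside values above 1.5 in both other mice. Among 9 rows with mouse 11 and mouse 13 both above 1.5, it was the only row listed at 0 for mouse 12 (11.1%). The lowest value among those measured there was 1.35. With both of these mice above 1, 2 of 27 rows (7.41%) were listed at 0 for mouse 12. With both above 0.5, 7 of 152 rows (4.61%) were, among them both of these S100a6 rows and an S100a4 row.

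S100a9, the calprotectin chain with a long tail, came next. Its fully measured row was at 1.63 in mouse 11, 1.64 in mouse 12 and 0.98 in mouse 13. Mice 11 and 12 nearly coincided, and mouse 13 lay 0.66 below the higher of them. The mean was 1.42 ± 0.38, the 5th highest of all genes, or 2.67-fold for base 2 and 26.2-fold for base 10. Its SD was larger than that of 97.5% of genes, while the S100a6 SD was near the median gene's 0.13. A further S100a9 row read 0.68 in mouse 11 and 0.55 in mouse 12, below the first row in both, and is listed at 0 for mouse 13. With this row averaged in, the mean of S100a9 was 1.08. That mean takes both rows in mice 11 and 12 but only the first row in mouse 13, so the mice rest on unlike rows.

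S100a8, the partner chain of S100a9, depended on the row. One row was at 1.28 in mouse 11, 1.15 in mouse 12 and 0.91 in mouse 13, a mean of 1.12 ± 0.19. Another was at -0.03 in mouse 11, -0.15 in mouse 12 and 0.22 in mouse 13, a mean of 0.01 ± 0.19. The values of these rows did not overlap, and mouse 13 changed place, lowest in the first row and highest in the other, while mouse 11 was above mouse 12 in both. The third S100a8 row is listed at 0 for every mouse. The 3 rows are annotated to 3 different source sequences. The gene mean over the measured rows was 0.56 ± 0.06, or 1.48-fold for base 2 and 3.67-fold for base 10, a mean of rows between which mouse 13 changed place.

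The gap between the S100a8 rows was 1.31 in mouse 11, 1.30 in mouse 12 and 0.69 in mouse 13, a mean of 1.10 ± 0.35. Over the 1103 genes with at least 2 fully measured rows, the median gap between the highest and lowest row mean was 0.17. The S100a8 gap was larger than that of 98.6% of these genes, and 14 genes had a gap as large. S100a6 and S100a9 had only 1 fully measured row each, so this ranking leaves them out, but their rows disagreed too. S100a9 rows read 1.63 against 0.68 in mouse 11 and 1.64 against 0.55 in mouse 12. S100a6 rows read 1.92 against 0.90 in mouse 11 and 1.72 against 0.64 in mouse 13. A further S100a6 row was closer to the top one, at 1.70 and 1.62. The gene mean of S100a8 describes neither row, and which of them measured S100a8 RNA was not tested.

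**Figure D1:**
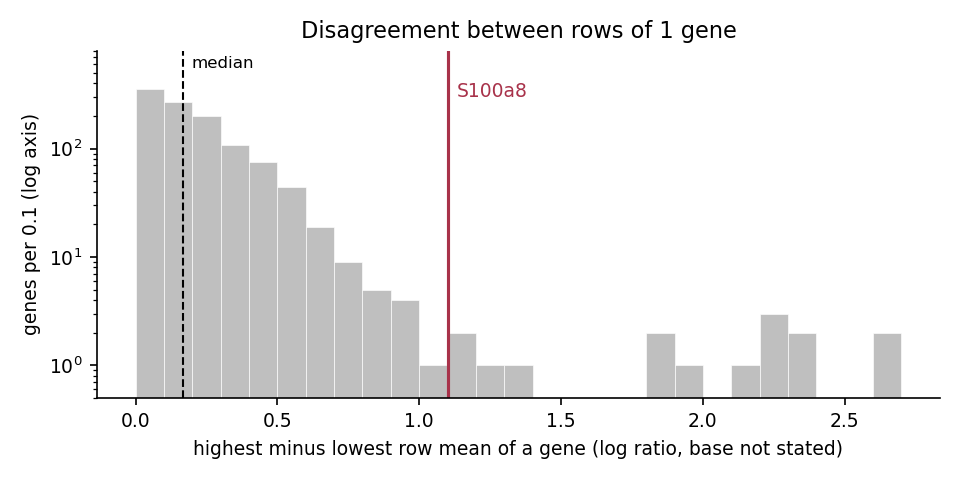
Number of genes (log axis) by the difference between their highest and lowest row mean, in steps of 0.1 on the deposited log ratio scale, for the 1103 genes with at least 2 rows measured on all 3 arrays. The dashed line is the median, 0.17, and the red line is S100a8 at 1.10, in the sparse right part of the distribution.

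The calprotectin chains were compared within each mouse. By gene means, S100a8 minus S100a9 was -1.003 in mouse 11, -1.14 in mouse 12 and -0.41 in mouse 13. By the high S100a8 row and the fully measured S100a9 row the chains were closer, 1.28 against 1.63 in mouse 11, 1.15 against 1.64 in mouse 12, and 0.91 against 0.98 in mouse 13. The high S100a8 row was below this S100a9 row in every mouse. It was above the further S100a9 row, at 0.68 in mouse 11 and 0.55 in mouse 12, so the order of the chains depends on the rows compared. These are ratios to control for different probes, not levels of RNA, so they do not show which chain was more abundant.

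S100a10, with a single row, stood apart from the other members. Its row was at 0.09 in mouse 11, 0.11 in mouse 12 and -0.01 in mouse 13. All 3 mice were near 0, with 1 of them on the other side of it. Mouse 13 fell below 0 only through the centring, as its deposited value was 0.003. The mean of 0.06 ± 0.06 was 1.05-fold for base 2 and 1.16-fold for base 10, and 62.4% of all genes had a lower mean. In every mouse S100a10 was lower than each of the other members by the gene means, by 1.73 to 1.88 against S100a6, 0.99 to 1.54 against S100a9 and 0.39 to 0.58 against S100a8. The low S100a8 row on its own was below S100a10 in mice 11 and 12.

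**Figure D2:**
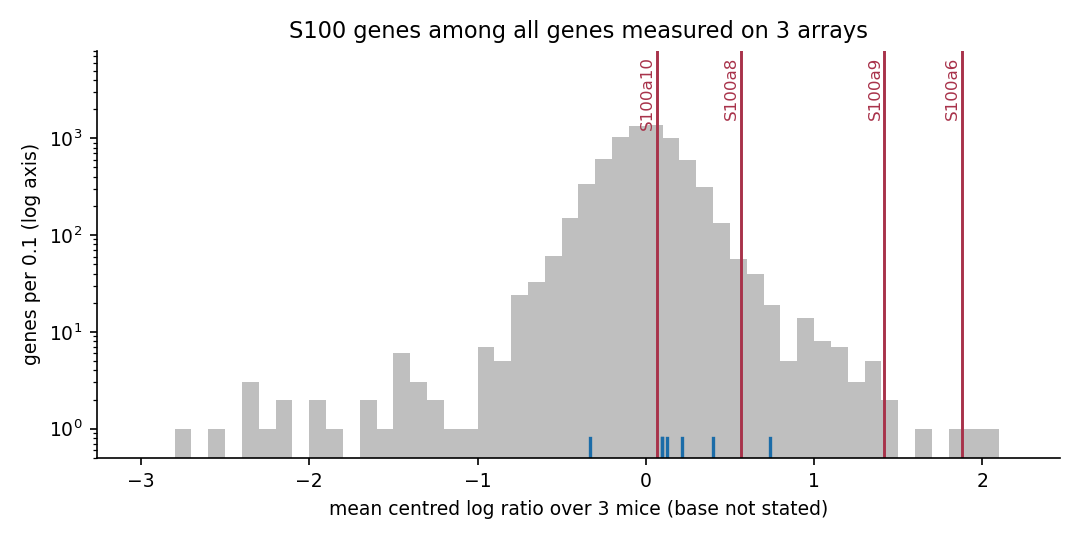
Number of genes (log axis) by mean centred log ratio over the 3 mice, in steps of 0.1, for 7235 genes. Red lines are the means of S100a6 (1.88), S100a9 (1.42), S100a8 (0.56) and S100a10 (0.06), and blue ticks at the bottom are the 7 other S100 genes with a value on all 3 arrays, between -0.33 and 0.74.

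The rest of the S100 family gave mostly small values. Of 13 other S100 genes looked for, 10 had a row and 7 had a row measured on all 3 arrays, and their median log ratio was 0.13, against -0.001 for all genes. By limma with Benjamini-Hochberg adjustment over all 7235 genes and a threshold of 0.05, 2 of these 7 were higher and none was lower. Over all genes 19.4% passed, 9.48% higher and 9.97% lower. S100a4, a calcium sensor of fibroblasts and leukocytes that binds myosin and is separated from S100a6 by S100a5 on the chromosome, was at 0.82, 1.04 and 0.35 in mice 11, 12 and 13. It rose by a mean of 0.74 ± 0.35 (adjusted p = 0.00969) and kept its call with any 1 mouse left out. A further S100a4 row, annotated to the same source sequence, was close to it at 0.87 in mouse 11 and 0.55 in mouse 13, and is listed at 0 for mouse 12.

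S100a16 was at 0.70, 0.41 and 0.09 in mice 11, 12 and 13. It passed narrowly with a mean of 0.40 ± 0.31 (adjusted p = 0.0486), and the call ended without mouse 11 (adjusted p = 0.244) or mouse 12 (adjusted p = 0.0883). S100a1, a regulator of muscle contraction, had a mean of 0.21 ± 0.21 (adjusted p = 0.147) and passed without mouse 13 (adjusted p = 0.0492). The means of S100a11, a partner of annexin A1, and S100a13, which helps release growth factors without a signal peptide, were 0.13 ± 0.14 and 0.10 ± 0.12 (adjusted p = 0.297 and 0.398). S100g, the calbindin-D9k of calcium-transporting epithelia, was at 0.55, 0.03 and -0.29, a mean of 0.10 ± 0.42 (adjusted p = 0.653), the widest spread of the S100 genes. S100b, a protein of glia, was the lowest at -0.33 ± 0.25 (adjusted p = 0.0562), and passed as lower without mouse 11 (adjusted p = 0.0442). Its row had 17 others with a mean below -1 within 100 row numbers, whereas the measured rows of the 4 members had between 0 and 2. The S100a3 rows gave a single value, -1.16 in mouse 13, and all rows of S100a5 and S100a14 are listed at 0.

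**Figure D3:**
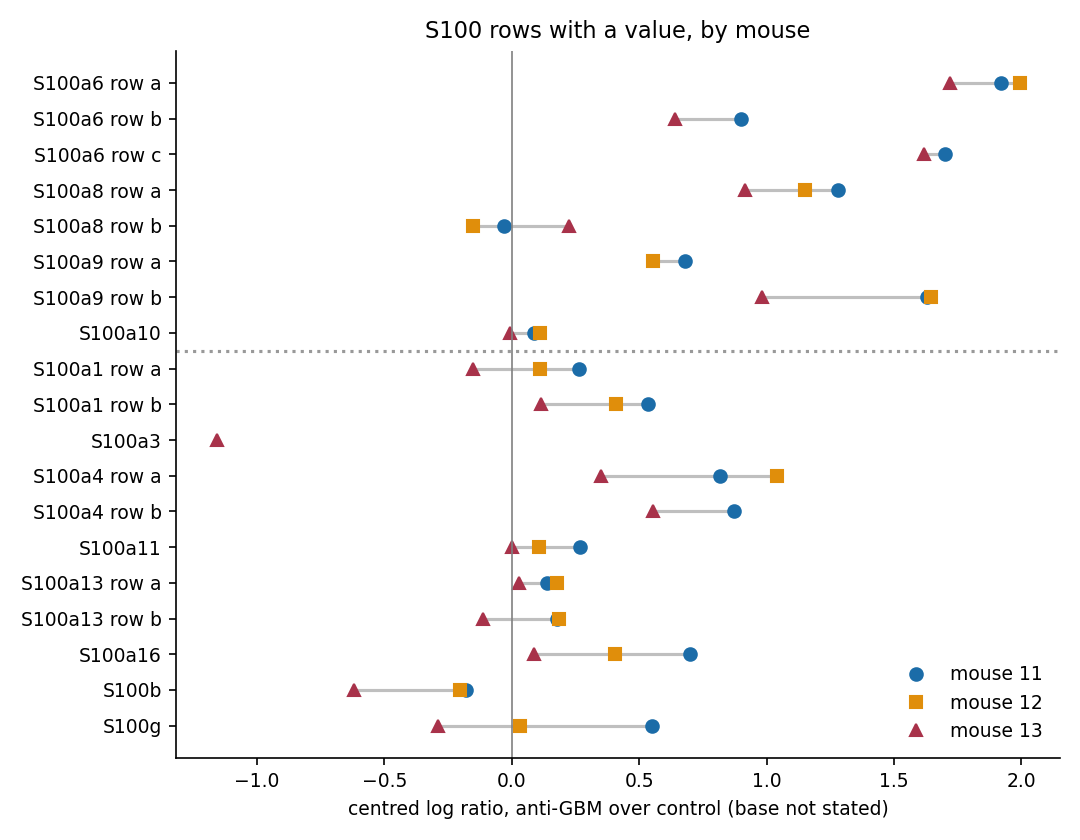
Centred log ratio (deposited scale, base not stated) of every S100 row with a value, by mouse, with the 4 members above the dotted line and the other S100 genes below it. Grey lines join the lowest and highest mouse of a row. Red triangles (mouse 13) lie at the left end of 13 of the 14 rows measured on all 3 arrays, the exception being the low S100a8 row.

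Across the family mouse 13 had the lowest values. It was the lowest of the 3 mice in 13 of the 14 fully measured S100 rows, including 4 of the 5 member rows, against 38.7% of the 9682 fully measured rows of the table and 44.3% of the 219 such rows with a mean above 0.5. Among rows with a value in mice 11 and 13, mouse 13 was lower in 16 of 17 S100 rows and in 51.7% of all 10338 rows. S100 rows of 1 array share its RNA and labelling, so they are not independent, and these counts carry no test. The median of the monocyte and macrophage markers was also lowest in mouse 13, at 0.39, 0.22 and 0.08 in mice 11, 12 and 13, and that of the neutrophil markers was -0.04, -0.09 and -0.17. So was the median of the distal nephron and collecting duct markers, at 0.10, 0.08 and -0.09. The proximal tubule median was lowest in mouse 12 (0.05, -0.27 and -0.01). The podocyte marker Nphs1 was lowest in mouse 11 (-0.55, -0.41 and -0.13). The part of any of these cells in the S100 values was not tested.

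Of 21 genes for partners and receptors of the S100 proteins 15 were measured on all 3 arrays, with 2 higher, 2 lower and 11 not passing, and a median of -0.05. Over all genes 9.48% were higher and 9.97% lower, so counts this small say little about the list. Anxa2, the annexin that binds S100a10, was at 0.44, 0.55 and 0.58 in mice 11, 12 and 13 and rose by a mean of 0.52 ± 0.07 (adjusted p = 0.00523). It lay above S100a10 in every mouse, by 0.35, 0.44 and 0.59, a mean of 0.46 ± 0.12. Plaur, the receptor of urokinase, rose by 0.42 ± 0.23 (adjusted p = 0.0258), a call that ended without mouse 13 (adjusted p = 0.0689). Plau, the plasminogen activator urokinase itself, was lower at -0.48 ± 0.07 (adjusted p = 0.00686), with its 3 rows between -0.58 and -0.33. Cd36, a scavenger receptor that binds calprotectin-borne fatty acids, was lower at -0.47 ± 0.22 (adjusted p = 0.0167).

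The receptor Ager was at -0.07 ± 0.08 (adjusted p = 0.503) and Ly96, the co-receptor of Toll-like receptor 4, at -0.30 ± 0.18 (adjusted p = 0.0504), which passed without mouse 12 (adjusted p = 0.0244). The Tlr4 rows had no value in mouse 11 and disagreed in sign, one at 0.04 and 0.22 and another at -0.43 and -0.10 in mice 12 and 13. The S100a6-binding proteins Cacybp and Sugt1 were at -0.01 ± 0.05 and -0.16 ± 0.13 (adjusted p = 0.949 and 0.199).

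Of 43 calcium-binding genes of other EF-hand families 32 were measured, with 5 higher, 3 lower and 24 not passing, and a median of -0.02. The lower count lies near the share over all genes, 9.97%, and the higher count lies above its share of 9.48%. Counts this small say little about the list. The actin crosslinkers Actn1 (0.62 ± 0.21, adjusted p = 0.00686) and Actn4 (0.40 ± 0.10, adjusted p = 0.0136) rose, as did Calu, an endoplasmic reticulum protein (0.40 ± 0.07, adjusted p = 0.0117, lost without mouse 11 at adjusted p = 0.0655), Nucb2 (0.39 ± 0.07, adjusted p = 0.0124) and the calmodulin gene Calm3 (0.33 ± 0.10, adjusted p = 0.0253), a call that ended in each of the 3 refits on 2 mice (highest adjusted p 0.0684). Pvalb and Calb1, calcium buffers found in the distal tubule, were lower, Pvalb at -0.77 ± 0.24 (adjusted p = 0.00412) and Calb1 at -0.48 ± 0.09 (adjusted p = 0.00734), with Calb1 rows at -0.77 and -0.18. Of the 7 measured distal nephron and collecting duct markers, Calb1 among them, 2 were lower and 5 did not pass, and S100g did not pass either. Rcn3 was lower at -0.30 ± 0.13 (adjusted p = 0.0371) and did not pass in any refit on 2 mice (highest adjusted p 0.121).

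Markers of the cells that carry calprotectin were read beside S100a8 and S100a9, with both genes kept out of the lists. Of 11 measured neutrophil markers 1 was higher, 2 were lower and 8 did not pass, with a median of -0.10, beside 9.48% higher and 9.97% lower over all genes. The neutrophil surface protein gene Ly6g was at -0.19 ± 0.15 (adjusted p = 0.147), the granule genes Mpo and Elane at -0.10 ± 0.11 and 0.08 ± 0.10 (adjusted p = 0.378 and 0.502), and the receptor Cxcr2 at -0.19 ± 0.08 (adjusted p = 0.113). Ltf, of secondary granules, was lower at -0.39 ± 0.05 (adjusted p = 0.0116), as was Ngp at -0.31 ± 0.17 (adjusted p = 0.0432), whose row has 18 low rows within 100 row numbers and whose call ended without mouse 11 or 12 (highest adjusted p 0.156). Prtn3 was higher at 0.25 ± 0.08 (adjusted p = 0.0486) and passed in no refit on 2 mice (highest adjusted p 0.268). Of the neutrophil markers not measured on all arrays, Chil3 is listed at 0 throughout, Camp read -0.06 and Lcn2 0.48 in mouse 13 alone, Csf3r read -0.07 and 0.08 in mice 11 and 13, and a Padi4 row read -0.37 and -0.29 in the same mice. The share of neutrophils in the S100a8 and S100a9 values was not tested.

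The median of 11 measured monocyte and macrophage markers was 0.29, with 6 that rose, 1 that fell and 4 that missed the threshold, beside 9.48% of all genes higher and 9.97% lower. The Fc receptor Fcgr1 was at 0.80, 0.82 and 0.33 in mice 11, 12 and 13, a rise of 0.65 ± 0.28 (adjusted p = 0.00883), and the protease Ctss rose by 0.48 ± 0.13 (adjusted p = 0.00904). The calls of Lyz2 (0.47 ± 0.31), Mpeg1 (0.29 ± 0.09), Aif1 (0.31 ± 0.17) and Fcer1g (0.39 ± 0.29) ended with mouse 11 left out (adjusted p from 0.123 to 0.251), and the count of higher markers was then 2. Each passed in only 1 of the 3 refits on 2 mice: Lyz2 and Mpeg1 also ended without mouse 13 (adjusted p = 0.0678 and 0.0724), and Aif1 and Fcer1g without mouse 12 (adjusted p = 0.109 and 0.119). The growth factor receptor Csf1r was lower at -0.72 ± 0.33 (adjusted p = 0.00919), and Adgre1, the F4/80 antigen, was at -0.21 ± 0.25 (adjusted p = 0.179). Among markers not measured on all arrays, Cd163 read -0.75 and -0.74 in mice 11 and 12, Cd14 read -0.59 in mouse 11 alone, and Cd68 and a Ccr2 row read 0.39 and 0.54 in mouse 13 alone.

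Factors known to drive S100a8 and S100a9 transcription, with cytokines that induce them, gave 11 measured genes with a median of 0.11, of which 4 rose, 1 fell and 6 missed the threshold (all genes 9.48% higher, 9.97% lower). The transcription factor Stat3 rose by 0.57 ± 0.14 (adjusted p = 0.00536), the cytokine Il1b by 0.51 ± 0.05 (adjusted p = 0.00534), Jun by 0.47 ± 0.12 (adjusted p = 0.00875) and Cebpb by 0.37 ± 0.20 (adjusted p = 0.0289), the last not passing with mouse 12 or mouse 13 removed (highest adjusted p 0.0862). Of the called genes Stat3, Jun, Cebpb and Fos were lowest in mouse 11, unlike the S100 rows, and Il1b was lowest in mouse 12. The median of the list was also lowest in mouse 12, at 0.09, -0.005 and 0.25 in mice 11, 12 and 13. Fos was lower at -0.65 ± 0.38 (adjusted p = 0.0176), with rows at -1.07 and -0.22 and up to 17 low rows within 100 row numbers. Tnf was at 0.04 ± 0.01 (adjusted p = 0.729).

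**Figure D4:**
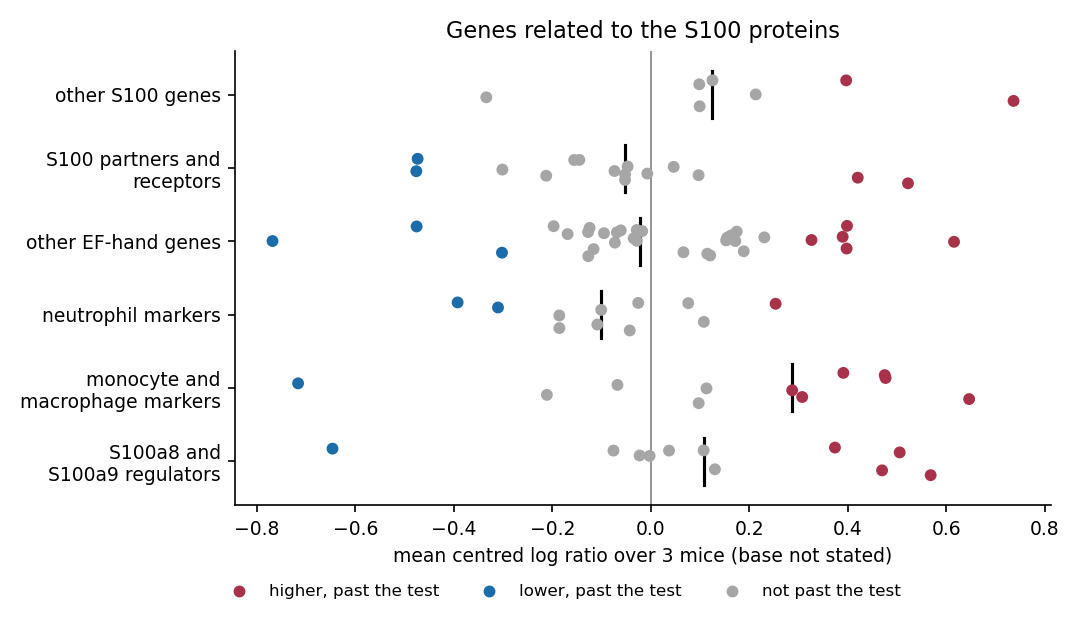
Mean centred log ratio over 3 mice for the measured genes of 6 lists, with the vertical position within a list drawn at random and black bars at the list medians. Red and blue points are genes higher and lower past the test, and grey points did not pass it. The medians of neutrophil markers (-0.10) and partners (-0.05) lie left of 0, and those of monocyte and macrophage markers (0.29) and other S100 genes (0.13) right of it.

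The genes nearest to each member were sought by Euclidean distance between log ratios on the 3 arrays, over all 7235 genes. The nearest to S100a6 were Tagln, a smooth muscle actin-binding protein (distance 0.16), the serum amyloid Saa2 (0.47), the mitotic kinase Pbk (0.58), the kinetochore gene Cenpk (0.83) and S100a9 (0.87). Tagln was at 2.02, 2.11 and 1.67 in mice 11, 12 and 13, the same order of mice as S100a6. A choice by distance on these same values favours a shared order. Nearest to S100a9 were Cenpk (0.19), 2700099C18Rik (0.27), Hells (0.28), Mcm6 (0.47) and Cenph (0.53). Only 1 gene lay within 0.20 of S100a6 and 1 of S100a9. For S100a8 the nearest were Sall1 (0.06), Ndufa9 (0.09), Rplp0 (0.09), Rpa2 (0.10) and Thbd (0.10), which match an average of disagreeing rows. For S100a10, with 1231 genes within 0.20, they were Med20, Atxn10, Upp1, Smad5 and Ct55 (0.01 to 0.03).

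Along chromosome 3, in RefSeq order, the measured genes next to S100a6, S100a8 and S100a9 were S100 genes on the side of S100a4, then S100a16 and S100a13. Beyond S100a9 came genes of the skin barrier, Lor at 0.09 ± 0.22 (adjusted p = 0.526), Sprr2c-ps at -0.04 ± 0.20 (adjusted p = 0.784) and Sprr2e at -0.17 ± 0.02 (adjusted p = 0.122). Around S100a10 the measured neighbours were S100a11, Tchhl1 (0.17 ± 0.09, adjusted p = 0.144) and Lce3b (-0.05 ± 0.10, adjusted p = 0.651) on one side. On the other lay Oaz3, which was lower at -0.66 ± 0.15 (adjusted p = 0.00384), Mrpl9, which was higher at 0.35 ± 0.10 (adjusted p = 0.0204), and Snx27 (0.20 ± 0.08, adjusted p = 0.0967).

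The arrays give ratios, so whether the tissue expressed a kidney marker cannot be read from them. Of the kidney markers looked for, 1 of 5 podocyte, 3 of 6 proximal tubule and 7 of 8 distal nephron and collecting duct genes had a value on all 3 arrays. The arrays of mice 11, 12 and 13 held 10898, 10789 and 11483 rows that were not 0. No level of depth or brightness was used, and the number of arrays limits the precision.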

How the data were processed

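Kidney RNA of 3 anti-GBM mice was hybridised on 3 two-colour arrays against 1 pool of control RNA, per the labels. The deposited table holds 1 log ratio per row and array. The sources used here do not name the scanner, background correction, normalization or logarithm base. Rows were named by the platform annotation: 1 gene for 13738 rows, several for 52, while 2491 rows have no entry. Exact zeros, 29.5% to 33.7% of an array, were read as no estimate. The median of the remaining values was subtracted from each array, and fully measured rows of a gene were averaged. Genes were tested against 0 in R 4.3.3 by an intercept-only fit of limma 3.58.1 (lmFit, eBayes), with Benjamini-Hochberg adjustment over 7235 genes and a threshold of 0.05. The script was tested on simulated data with known shifts. The test leaves out the spread between control mice, and probe-specific dye bias was not removed.

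The members and lists were chosen with earlier results of these data known. Named are all members, every other S100 gene with a row, up to 4 called genes per list with the smallest p, the 5 nearest genes per member and 3 measured genes on each side of a member. Further called list genes, and receptors and markers that did not pass, were named after their values were seen. Gene order and promoters come from RefSeq (GRCm38.p6). No source used here names the probes' genome build. Python 3.11.15, pandas 2.3.3, numpy 2.4.6 and matplotlib 3.10.9 were used. Alternatives covered centring, zeros, row use, scaling, moderation and leaving out each mouse.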

Additional observations from a re-analysis of the deposited data

How the results depend on the processing

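Over 36 refits of the members' means none changed sign, and 32 moved by less than the SD between mice. Much of this count was fixed in advance. Leaving 1 of 3 mice out always shifts a mean by less than the SD. The median over rows equals the mean for genes with 1 or 2 fully measured rows. Rows measured on 2 or 3 arrays add nothing to S100a8 or S100a10. The count is therefore no measure of robustness. Kept as 0, the zeros lowered S100a6 to 1.17, S100a8 to 0.38 and S100a9 to 0.92. With rows measured on 2 or 3 arrays S100a6 was at 1.61. In that mean mouse 12 rests on the highest row alone, while mice 11 and 13 rest on all 3 rows. Over all genes 1407 passed (686 higher, 721 lower). With zeros kept as 0, which adds genes listed at 0 on every array, 31 passed (20 higher, 11 lower). A plain test without moderation called 3 (2 higher, 1 lower). With 1 mouse left out the counts ranged from 726 to 1032, with 355 to 541 higher and 371 to 539 lower, the lowest total without mouse 11.

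With zeros kept as 0, every list count, higher or lower, was 0. Other S100 genes higher numbered 1 with the running median subtracted, 1 with rows on 2 or 3 arrays and 1 to 3 with 1 mouse left out, and lower 0 to 1. With 1 mouse left out, higher partners numbered 1 to 2, higher EF-hand genes 3 to 4, higher monocyte and macrophage markers 2 to 4, and neutrophil markers 0 higher and 1 to 2 lower. Neutrophil markers numbered 0 higher with rows on 2 or 3 arrays and 1 lower with the running median subtracted. A call lost on 2 arrays does not show that a gene rested on 1 mouse. A single pool, 1 dye orientation and an unstated log base limit every value.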
